A study of Mus musculus with 7 samples.

Results

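The chromatin around *Isl1* was examined in sorted cells of the mouse second heart field (SHF) region, in a window of 800 kb on chromosome 13 (GRCm38, chr13:115809688-116609688) that runs from 300 kb upstream to 500 kb downstream of the *Isl1* transcription start site (TSS, 116309688, minus strand). Members were all deposited peaks that overlap this window. Peaks with a q value of at most 0.01 in any of the 7 libraries were merged wherever they shared 1 bp or more, which gave 46 regions of the 210347 regions formed the same way across the genome. Between 28 and 59 deposited peaks fell in the window per library, from lists of 187914 to 291287 peaks, and 14 to 23 of them had a q value of at most 0.01.

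The study used ATAC-seq, in which a transposase inserts sequencing adapters into accessible DNA, to compare sub-populations of the SHF at E9.5. Cells of the dissected SHF region were pooled from several embryos and sorted in a pair of mouse lines. In the Hoxb1GFP line, a reporter of *Hoxb1* expression gave GFP+ cells (posterior SHF, replicates 3 and 4) and GFP- cells (replicates 1 and 2). In the Mef2c-Cre;RosatdT line, Cre driven by the anterior heart field enhancer of *Mef2c* recombined a Tomato reporter, which gave Tomato+ cells (replicates 6 and 8) and Tomato- cells (replicate 7). The Tomato label is a lineage label and stays on in descendants of cells in which the enhancer was active, and the negative gates hold every other cell of the dissected region. Where a pair of values is given for a population, it follows the order of these replicate numbers. The labels do not say which libraries came from separate pools, so that the p-values below measure only the spread between these libraries. In such bulk libraries, a smaller share of cells with an open site and less accessibility per cell cannot be told apart. The file header of Tomato+ replicate 6 names its run YFP, whereas its labels place it in the Mef2c-Cre;RosatdT line. The labels were followed here, and GFP+ minus Tomato+ at the 3 single-copy regions with a peak in all libraries is also given without it.

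*Isl1* encodes a LIM-homeodomain transcription factor that marks undifferentiated SHF progenitors and is required for the growth of both poles of the heart tube. It is switched off as these progenitors differentiate. The same gene is used in motor neurons, sensory neurons, pancreas and hindlimb, and its regulation in these tissues is known to involve elements scattered over the gene-poor sequence on either side. *Isl1* was the only protein-coding gene in the window. The next ones annotated in RefSeq were *Itga1*, whose nearest end lay 1196 kb past the 3′ end of *Isl1*, and *Parp8*, 541 kb upstream of the TSS. The GENCODE annotation added 4 processed pseudogenes (*Gm47893*, *Rpl34-ps2*, *Gm29764* and *Gm47912*) and the lincRNA *Gm47914* (chr13:116558311-116677705). The 46 regions compare with a median of 50 in tiles of 800 kb along the genome and of 20 in the 974 tiles with at most 1 protein-coding gene, 84.9% of which held fewer regions than the *Isl1* window. Of the 46 regions, 41 lay outside *Isl1* and its promoter, and those from 257 kb upstream onward were in the span of *Gm47914*. By their midpoint, 19 lay upstream and 27 downstream of the TSS, and 39 were single-copy.

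Sequence is shown for the stretches on which the results turn, read from the GRCm38.p6 genome of RefSeq. The first lies just upstream of the *Isl1* TSS (chr13:116309699-116309888, minus strand), where the strongest summit of the window's unique sequence was found, and its capitals mark a binding site for POU factors annotated in RefSeq.
*Isl1* promoter: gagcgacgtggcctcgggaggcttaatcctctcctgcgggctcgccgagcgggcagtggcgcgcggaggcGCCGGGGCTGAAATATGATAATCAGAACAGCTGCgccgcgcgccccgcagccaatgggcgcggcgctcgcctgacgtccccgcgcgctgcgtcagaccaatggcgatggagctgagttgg
The second is the centre of the SHF enhancer Isl1-F (chr13:116293934-116294154, plus strand). Its capitals mark, in order, the annotated forkhead factor sites FOX2 and FOX1.
Isl1-F core: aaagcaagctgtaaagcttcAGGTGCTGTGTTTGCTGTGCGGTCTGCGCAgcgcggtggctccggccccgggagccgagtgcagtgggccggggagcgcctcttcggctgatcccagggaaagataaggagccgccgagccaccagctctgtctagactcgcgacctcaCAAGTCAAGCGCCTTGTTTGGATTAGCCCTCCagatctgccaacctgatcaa
A further annotated forkhead site of the same enhancer, FOX3 (chr13:116293155-116293190, plus strand), is shown whole because no library had a peak over it.
FOX3 site: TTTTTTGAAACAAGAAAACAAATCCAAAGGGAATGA
The next pair are the regions with a peak in both GFP+ and neither Tomato+ library, 284 kb downstream (chr13:116025990-116026160) and 214 kb upstream of the TSS (chr13:116523963-116524108). Capitals in the first mark matches to the TEAD letters GGAATG on the minus strand, and the second holds no motif match in this stretch.
284 kb downstream: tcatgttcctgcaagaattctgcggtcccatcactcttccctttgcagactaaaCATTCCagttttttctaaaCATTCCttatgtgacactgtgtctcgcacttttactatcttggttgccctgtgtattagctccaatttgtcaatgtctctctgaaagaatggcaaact
214 kb upstream: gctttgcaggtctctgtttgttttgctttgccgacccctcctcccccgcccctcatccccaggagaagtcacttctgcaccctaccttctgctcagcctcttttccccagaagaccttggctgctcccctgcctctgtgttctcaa
The last pair are a region 266 kb upstream (chr13:116575624-116575823), with the widest gap between GFP- and GFP+ libraries in the window, and a region 180.0 kb upstream (chr13:116489552-116489751), with a peak in every library of the Hoxb1GFP line. Capitals mark a MEIS match (TGACAG, minus strand) in the first. In the second they mark, in order, a HOX-PBX match (TGATNNAT, minus strand), a LIM homeodomain match (TAATTA) overlapped by a second HOX-PBX match, a MEIS match and a TEAD match. All 4 stretches are given on the plus strand.
266 kb upstream: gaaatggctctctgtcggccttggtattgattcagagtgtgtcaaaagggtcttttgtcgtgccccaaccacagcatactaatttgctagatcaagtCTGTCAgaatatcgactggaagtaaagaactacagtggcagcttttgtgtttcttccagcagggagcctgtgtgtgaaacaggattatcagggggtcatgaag
180.0 kb upstream: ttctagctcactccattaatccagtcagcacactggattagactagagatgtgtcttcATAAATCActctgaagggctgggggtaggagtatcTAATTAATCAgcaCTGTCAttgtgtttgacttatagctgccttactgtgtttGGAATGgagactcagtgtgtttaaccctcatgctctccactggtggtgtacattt

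The *Isl1* promoter was accessible in every sorted population. The promoter region (chr13:116309319-116310381, 1063 bp) spans sequence upstream of the TSS, exon 1 and the start of intron 1, and is 61.8% G and C. Its highest peak had a fold enrichment, the pileup of reads at the summit over the local background, of 8.71 and 6.97 in GFP+. The values were 8.36 and 8.18 in GFP-, 4.19 and 6.69 in Tomato+, and 7.09 in Tomato- replicate 7. Both Tomato+ libraries thus lay below the other 5 libraries, and the GFP+ values lay on either side of the GFP- values. On the -log10 q scale the peak reached 26.3 and 20.4 in GFP+, 25.5 and 24 in GFP-, 6.33 and 15.3 in Tomato+ and 20.9 in Tomato- libraries.

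Tomato+ replicate 6 stood apart at the promoter. Its peak was at position 31127 of its list by fold enrichment, against positions 5895 to 11715 in the other 6 libraries. The pileup at its summit was 22 reads, against 31 in Tomato+ replicate 8 and 41 to 44 in the other 5 libraries. It was also the shallowest library, with 52340120 tags against 59435263 to 93074895 in the others, as recovered from the background rate of each list. When scaled to 1000000 tags, the promoter pileup was 0.740 and 0.534 in GFP+, 0.578 and 0.611 in GFP-, 0.420 and 0.478 in Tomato+ and 0.441 in Tomato- libraries. On this scale the Tomato- value lay between both Tomato+ values, whereas by fold enrichment it lay above them. The local background used for the fold enrichment at the promoter was 1.35 (Tomato-) to 2.2 (Tomato+ replicate 6) times the genome-wide background of the same library.

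**Figure D1:**
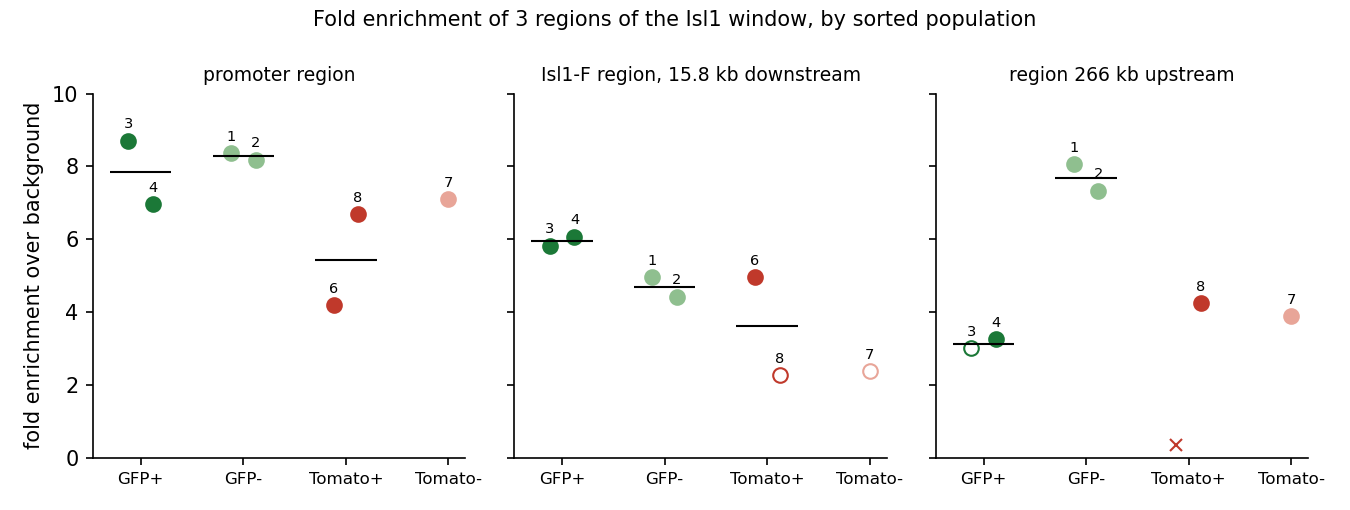
Fold enrichment (y axis) of the highest peak in 3 regions, by sorted population (x axis). Each point is 1 library with its replicate number, open where the q value exceeded 0.01, a cross marks a library with no deposited peak, and lines are means of 2 libraries: the Tomato+ libraries are lowest at the promoter, 4.19 and 6.69, and the GFP- libraries stand above all others 266 kb upstream, 8.06 and 7.33.

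The question of the comparison between sorted populations was whether accessibility differed between posterior (GFP+) and *Mef2c-Cre*-labelled (Tomato+) progenitors. GFP+ and Tomato+ cells came from different mouse lines, so a difference between these populations cannot be told apart from one between the lines. At the promoter, GFP+ minus Tomato+ was 0.60 on the log2 scale of quantile-normalised fold enrichment (SE 0.25, 95% interval 0.08 to 1.13, limma adjusted p = 0.478). The difference did not pass the test across the 34032 regions with a peak in all 7 libraries, and it was 0.30 without Tomato+ replicate 6 and 0.90 without Tomato+ replicate 8. GFP+ minus GFP- was -0.12 (SE 0.25, 95% interval -0.65 to 0.40, limma adjusted p = 0.981), and Tomato+ minus Tomato- was -0.41 (SE 0.31, 95% interval -1.05 to 0.23, limma adjusted p = 1.0). The latter was -0.10 without Tomato+ replicate 6, -0.71 without Tomato+ replicate 8 and -0.10 with pileup in place of fold enrichment. The interval of the GFP comparison thus held no change of more than 0.65 on the log2 scale in either direction, and without GFP+ replicate 4 the difference turned to 0.03. Taking both lines, the mean of the 4 sort-positive minus that of the 3 sort-negative libraries was -0.29 on the log2 scale of fold enrichment (two-sided exact permutation test, p = 0.400, smallest possible p = 0.057). It was -0.09 without Tomato+ replicate 6 (exact permutation p = 0.700) and -0.02 with the pileup scaled to 1000000 tags (exact permutation p = 0.971).

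The strongest summit of the promoter lay 77 to 98 bp upstream of the TSS in 6 libraries and 34 bp upstream in Tomato+ replicate 8. RefSeq annotates an oligonucleotide bound by POU2F1 and POU5F1, POU factors that recognise octamer sequences, at chr13:116309785-116309818, which is the stretch in capitals in the promoter sequence above. The distance from summit to this site was 0 bp in GFP+ replicate 4, 3 bp in GFP+ replicate 3, 6 bp in Tomato+ replicate 6, 13 and 14 bp in the GFP- libraries, 20 bp in the Tomato- library and 63 bp in Tomato+ replicate 8. The palindromic E-box CAGCTG lay inside the same site. Such an E-box was present in 14.8% of 200-bp windows around the strongest summit of all regions of the genome.

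Peaks within the rest of the gene were weak and varied between libraries. A total of 4 regions lay in exons 3 to 5 and introns 3 to 5, and 3 of them had a deposited peak in a single library (35.4% of regions genome-wide). The fourth (chr13:116302956-116303545), which spans exon 4, had a fold enrichment of 3.24 in GFP+ replicate 4, 3.09 in Tomato+ replicate 6 and 2.98 in GFP- replicate 2, and no peak in the other libraries. It was thus found in 1 library of each of 3 populations.

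The enhancer Isl1-F, which drives transgene expression in the SHF, is annotated at chr13:116292290-116296154, past the 3′ end of the gene. Its accessible part (chr13:116293524-116294297, 774 bp, intergenic, 15.8 kb downstream of the TSS) held a peak in all 7 libraries. Fold enrichment was 5.82 and 6.07 in GFP+, 4.95 and 4.43 in GFP-, 4.95 and 2.26 in Tomato+, and 2.37 in Tomato- replicate 7. Both GFP+ libraries were the highest of the 7, while Tomato+ replicate 8 and Tomato- replicate 7 were the lowest and were alone in a q value above 0.01.

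The rank of the Isl1-F peak set the libraries apart more sharply than the promoter did. Counted from the highest fold enrichment, it stood 4.81% and 6.0% down the lists in GFP+, 9.52% and 9.82% in GFP-, 7.81% in Tomato+ replicate 6, but 83.4% in Tomato+ replicate 8 and 67.3% in Tomato- replicate 7. Both Tomato+ libraries exchanged places between both elements, replicate 6 being lower at the promoter and higher at Isl1-F. When scaled to 1000000 tags, the Isl1-F pileup was 0.320 and 0.339 in GFP+, 0.263 and 0.247 in GFP-, 0.420 and 0.108 in Tomato+ and 0.107 in Tomato- libraries, so that on this scale Tomato+ replicate 6 was the highest of all.

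GFP+ minus Tomato+ at Isl1-F was 0.82 on the log2 scale of quantile-normalised fold enrichment (SE 0.32, 95% interval 0.14 to 1.51, limma adjusted p = 0.456). It was 1.42 without Tomato+ replicate 6 (limma adjusted p = 0.143) and 0.24 without Tomato+ replicate 8 (limma adjusted p = 0.796), so that its size rested on which Tomato+ library was kept. The sort-negative libraries of both lines also lay apart at Isl1-F, a difference that was not tested. Their quantile-normalised log2 fold enrichment was 2.36 and 2.17 in GFP- and 1.29 in Tomato- replicate 7, the last from a summit of 10 reads. GFP+ minus GFP- at Isl1-F was 0.30 (SE 0.32, 95% interval -0.38 to 0.99, limma adjusted p = 0.937), although both GFP+ values exceeded both GFP- values. Such a gap without overlap was found at 2 of the 10 regions of the window with a peak in all 4 libraries of the line, against 21.3% of regions genome-wide, and the reverse gap at 2 of 10, against 16.3%. GFP+ exceeded Tomato+ without overlap at 3 of 7 regions, the promoter, Isl1-F and a region 12.3 kb downstream (16.3% genome-wide), and Tomato+ exceeded GFP+ at none (20.3% genome-wide).

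RefSeq annotates sites for forkhead factors in Isl1-F, FOX1 and FOX3 for FOXA2, FOXC2 and FOXF1 and FOX2 for FOXA2. The peaks covered both FOX1 and FOX2 in 6 libraries and neither in Tomato- replicate 7, whose peak (chr13:116293646-116293762) stopped short of them. The strongest summit lay between FOX2 and FOX1 in the 4 libraries of the Hoxb1GFP line, 40 to 65 bp from FOX1. In the Tomato+ libraries and in Tomato- replicate 7 it lay beyond FOX2, at 348, 241 and 397 bp from FOX1. The summits of Tomato+ replicate 8 and Tomato- replicate 7 rested on 7 and 10 reads, at q values above 0.01. Tomato+ replicate 6 held a further summit between FOX2 and FOX1, at a fold enrichment of 3.24. A GATA match (AGATAA, in lower case in the sequence above) lay between both sites, and the same letters were found in 6.59% of 200-bp windows around summits genome-wide. FOX3, in the sequence shown above, lay outside every deposited peak.

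**Figure D2:**
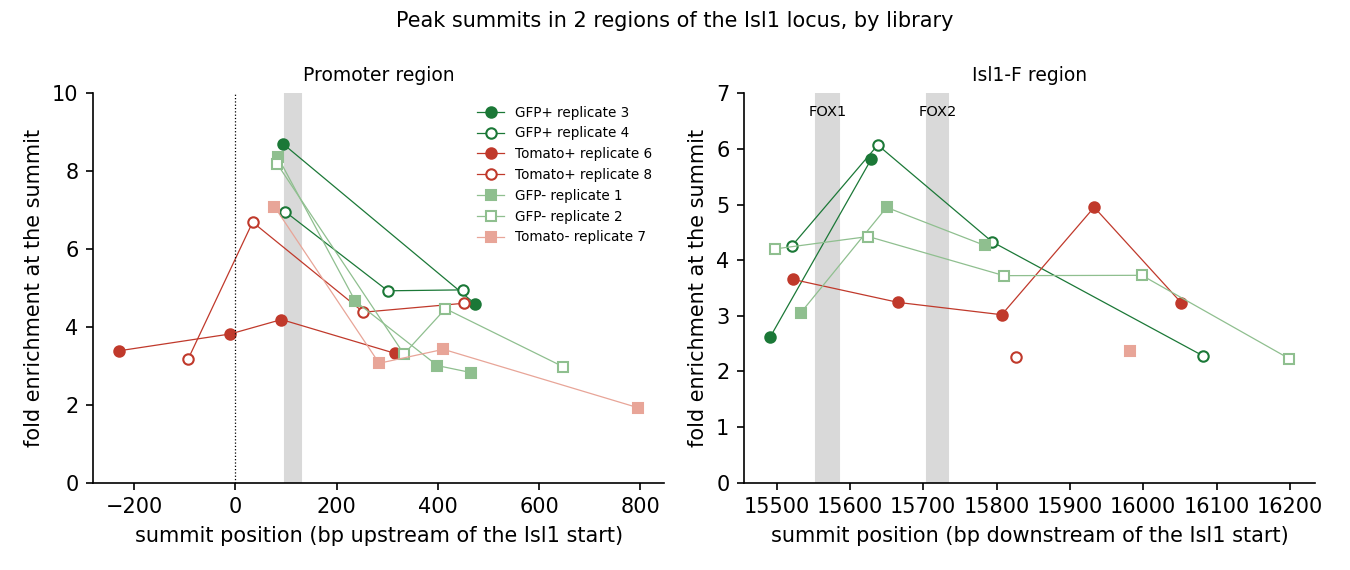
Fold enrichment (y axis) at each deposited summit against its position (x axis, bp from the *Isl1* TSS) in the promoter (left) and Isl1-F (right) regions, 1 line per library, with grey bands at the annotated POU, FOX1 and FOX2 sites and a dotted line at the TSS. The strongest promoter summits gather 77 to 98 bp upstream in 6 libraries, and the strongest Isl1-F summits of the 4 libraries of the Hoxb1GFP line lie between FOX1 and FOX2.

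Several other annotated elements had no peak in these libraries. Of 15 elements that RefSeq annotates in the window, 5 had a peak in all 7 libraries, 2 in 6 libraries and 8 in none. The annotations are nested and the counts are not of separate elements, since 5 of the 8 are E1 and pieces of it, and the 5 with a peak in all libraries are Isl1-F, its fragment and overlapping stretches of the promoter. The motor neuron enhancers E1 (chr13:116087428-116088064, 222 kb downstream) and E2 (chr13:115948157-115948745, 361 kb downstream) had no deposited peak in any library, and neither did the Phox2 site within E1. The TCF/LEF site about 2.0 kb upstream of the TSS (chr13:116311702-116311734), which is annotated as bound by LEF1, was also outside all peaks. At the promoters of 6 genes of motor neurons and neural tube (*Mnx1*, *Lhx3*, *Olig2*, *Isl2*, *Pax6* and *Sox2*), 4 to 6 had a peak with a q value of at most 0.01 in each library. The share over all gene promoters is not given here, so that this count does not tell which cell types were present. Since the lists hold only peaks past a p value of 0.01, a missing peak means that a site did not reach this limit.

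With repeated sequence included, the share of the window's regions that all libraries had in common was close to that of the genome. A deposited peak was present in all 7 libraries at 7 of the 46 regions, against 16.2% of regions genome-wide, and in a single library at 18, against 35.4%. A q value of at most 0.01 was reached in all 7 libraries at 4 regions (11.2% genome-wide) and in a single library at 26 (65.8%). Of the 39 single-copy regions, 3 had a deposited peak in all 7 libraries, and 1, the promoter, reached this q value in all 7. The genome-wide shares were not split by copy number. Of the 7 shared regions, 4 consisted of repeated sequence and 3 were single-copy: the promoter, Isl1-F and a region 12.3 kb downstream of the TSS. The last (chr13:116297131-116297734) lies just past the 3′ end of *Isl1* and had a fold enrichment of 3.42 and 3.71 in GFP+, 3.06 and 3.53 in GFP-, 3.05 and 2.55 in Tomato+ and 2.59 in the Tomato- library. Again Tomato+ replicate 8 and Tomato- replicate 7 were lowest, and GFP+ minus Tomato+ was 0.35 (SE 0.24, limma adjusted p = 0.697), or 0.48 without Tomato+ replicate 6.

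**Figure D3:**
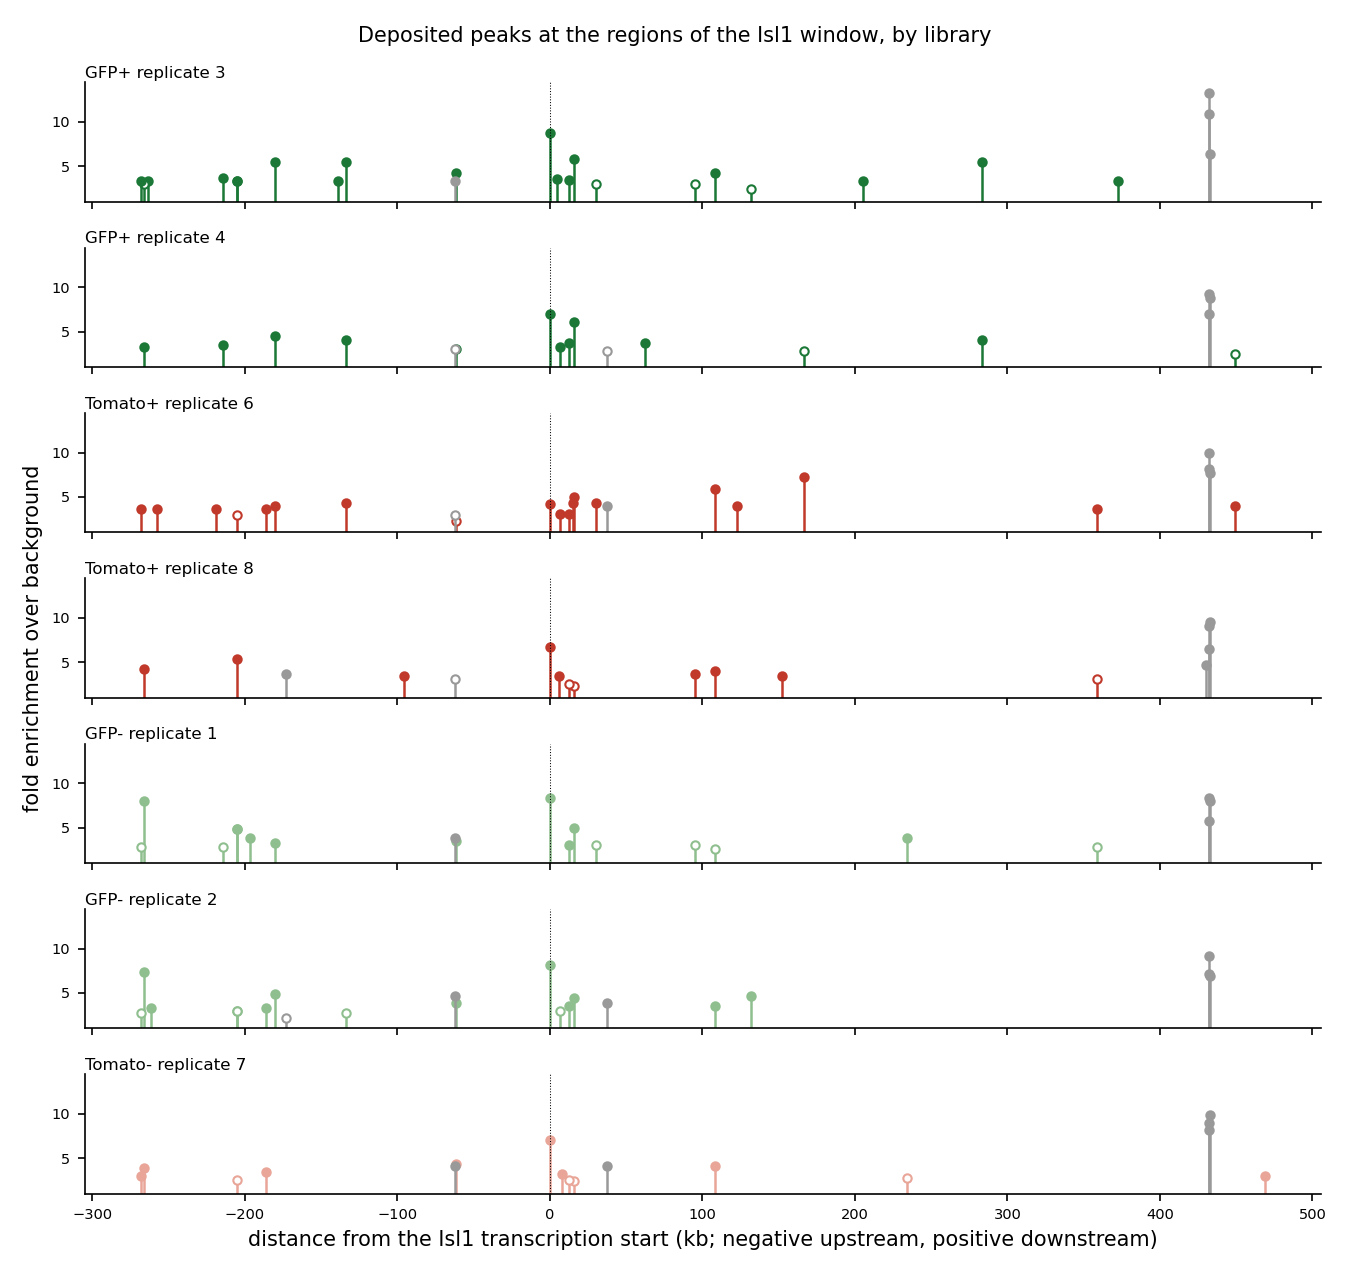
Fold enrichment (y axis) of the highest deposited peak at each of the 46 regions against distance from the *Isl1* TSS (x axis, kb), 1 panel per library. Filled points have a q value of at most 0.01, open points do not, and grey marks repeated sequence: unique peaks present in all 7 panels are confined to the promoter, Isl1-F and the region 12.3 kb downstream.

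The strongest peaks of the window outside the gene were in repeated sequence. They lay 432 to 433 kb downstream in 3 adjoining regions (chr13:115876890-115878024), whose fold enrichment ran from 5.79 to 13.3 over the 7 libraries. All bases of these regions are masked as repeats, and their 31-base words occur a median of 19, 221 and 656 times in the genome. Reads from the copies cannot be told apart here, and the position of this signal is uncertain. The same holds for a region 62.4 kb upstream (chr13:116371948-116372182, median 59 copies), where fold enrichment was 2.96 to 3.31 in the 4 sort-positive libraries and 3.78 to 4.61 in the 3 sort-negative libraries. These groups did not overlap (two-sided exact permutation test over 7 libraries, p = 0.0571, the smallest the design allows). This region alone reached that p among the 7 with a peak in all libraries, and the genome-wide share of such gaps is not given here. By limma, sort-positive minus sort-negative was -0.46 (SE 0.20, limma adjusted p = 0.963), or -0.44 without Tomato+ replicate 6.

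In none of the comparisons was a region of the window called. limma called 3 regions higher (0.00882%) and 1 lower (0.00294%) in GFP+ minus Tomato+ among the 34032 regions genome-wide, and 0 in the other comparisons. At an unadjusted p of at most 0.05, limma gave 2 of the 7 regions of the window in GFP+ minus Tomato+ (9.26% genome-wide; 1 of 8 without Tomato+ replicate 6), 0 in GFP+ minus GFP- (6.31%), 0 in Tomato+ minus Tomato- (3.39%) and 1 in sort-positive minus sort-negative libraries (5.15%). The difference between both lines, GFP+ minus GFP- less Tomato+ minus Tomato-, was 0.29 at the promoter (95% interval -0.55 to 1.12), -0.0181 without Tomato+ replicate 6 and 0.593 without Tomato+ replicate 8. By limma it passed the test at 0 regions of the genome and had an unadjusted p of at most 0.05 at 4.13%.

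**Figure D4:**
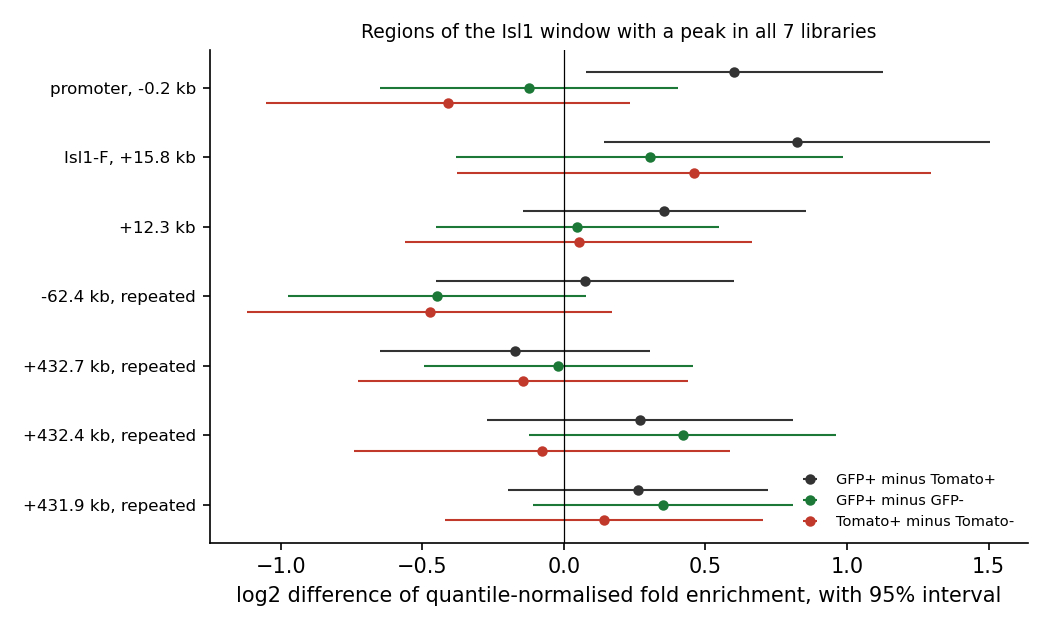
Differences of quantile-normalised log2 fold enrichment (x axis) with 95% intervals for the 7 regions with a peak in all libraries (y axis, by distance from the *Isl1* TSS in kb), for 3 comparisons. Intervals of GFP+ minus Tomato+ lie above 0 at the promoter (0.08 to 1.13) and Isl1-F (0.14 to 1.51), neither of which passed the test after adjustment.

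A total of 2 regions had a peak with a q value of at most 0.01 in both GFP+ libraries and no deposited peak in either Tomato+ library, against 0.518% of regions genome-wide. The reverse pattern, both Tomato+ and neither GFP+ library, was found at 0 (0.397% genome-wide). The region 284 kb downstream (chr13:116025990-116026174) had a fold enrichment of 5.42 and 4.0 in GFP+ and no peak in any of the other 5 libraries, GFP- cells included. It was the only one in the window with peaks in both GFP+ and neither GFP- library (0.553% genome-wide). It is single-copy, and both TEAD matches shown in capitals above lie within 100 bp of its summit. The region 214 kb upstream (chr13:116523884-116524108) had a fold enrichment of 3.61 and 3.50 in GFP+ and 2.77 in GFP- replicate 1, the last with a q value above 0.01, and no peak elsewhere. With any deposited peak counted, 2 regions had one in both GFP+ and neither Tomato+ library (3.28% genome-wide), and 1 region, 359 kb downstream, in both Tomato+ and neither GFP+ library (2.69% genome-wide). These are patterns of presence in 2 against 2 libraries and have no test. The counts moved with the libraries kept. The first was 7 without GFP+ replicate 4 and 4 without Tomato+ replicate 6. The second was 5 without Tomato+ replicate 6, 6 without Tomato+ replicate 8 and 1 without GFP+ replicate 3. With 1 library of a pair left out, the rule asks for 1 library instead of both. Genome-wide shares under that looser rule are not given here, so these counts have no share to be set beside.

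Several other single-copy regions stood out, chosen after their values were seen. The region 266 kb upstream (chr13:116575579-116576095), in the span of *Gm47914* but outside its exons, had a fold enrichment of 8.06 and 7.33 in GFP-, close to that of the *Isl1* promoter in the same libraries. It was 3.01 and 3.25 in GFP+, 4.25 in Tomato+ replicate 8 and 3.88 in Tomato- replicate 7, with no deposited peak in Tomato+ replicate 6. The GFP- libraries thus stood above all others, at pileups of 31 and 26 reads against 9 to 17. As 1 library lacked a peak, the region was tested among the 40917 regions with a peak in all 4 libraries of the Hoxb1GFP line, a fit added after the data were seen. GFP+ minus GFP- was -1.31 on the log2 scale (SE 0.24, 95% interval -1.83 to -0.80, limma adjusted p = 0.121), and its unadjusted p of 4.25e-05 by limma was at position 10 among the 40917 regions, although limma called 0 regions and found 3278 (8.01%) at an unadjusted p of at most 0.05. The position was 15 under median centring or with no normalisation, and 31 to 60 with 1 library of the line left out, where the limma adjusted p ran from 0.696 to 0.891.

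The region 180.0 kb upstream (chr13:116489485-116489822) had peaks in 5 libraries, with a fold enrichment of 5.42 and 4.50 in GFP+, 3.27 and 4.88 in GFP- and 3.94 in Tomato+ replicate 6. GFP+ and GFP- values overlapped, and Tomato+ replicate 8 and Tomato- replicate 7 had no peak there. A region 134 kb upstream (chr13:116443214-116443533) was found in GFP+ at 5.42 and 4.0, in Tomato+ replicate 6 at 4.27 and in GFP- replicate 2 at 2.71. A region 108 kb downstream (chr13:116201575-116201868) was found in 6 libraries at 2.52 to 5.92, highest in Tomato+ replicate 6, and not in GFP+ replicate 4. Tomato+ replicate 6 also held the strongest single-copy peak of either Tomato+ library, 167 kb downstream (chr13:116142907-116143319), at 7.23 against 2.75 in GFP+ replicate 4 and no peak in the other 5 libraries.

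Motif letters were searched on both strands in 200 bp around the strongest summit of each region. LIM homeodomain matches (TAATTA) were found in 5 of 46 windows at the locus (10.9%) and 2.16% of windows genome-wide. MEIS letters (TGACAG) were present in 11 windows (23.9%, genome 15.5%). TEAD letters (GGAATG) were present in 10 (21.7%, genome 11.1%), as in the region 284 kb downstream. HOX-PBX letters (TGATNNAT) were found in 5 windows (10.9%, genome 6.36%). These include the repeated regions 432 kb downstream with a median of 221 and 656 copies, the latter also among the TEAD matches. GATA letters (AGATAA), read by the GATA factors of the heart, were found in 4 (8.70%, genome 6.59%). NKX2 letters (CACTTNA) occurred in 6 windows (13.0%, genome 7.97%). The E-box occurred in 7 (15.2%, genome 14.8%), which is close to the genome-wide share. TCF letters (CTTTGAT), read by the effectors of Wnt signalling, occurred in 2 (4.35%, genome 2.32%). None of the 46 windows held the FOX letters (TGTTTAC, genome 1.90%). The same was true of the POU letters (ATGCAAAT, genome 0.816%) and of the CTCF motif (genome 0.643%). TAATTA can hold part of a HOX-PBX match, as in the region 180.0 kb upstream, and the difference between locus and genome was not tested. The windows were not matched for base composition, and the TAATTA windows 5.89 kb downstream and 261 kb upstream belong to peaks of a single library. The annotated FOX1 and FOX2 sites hold none of the exact FOX letters searched.

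Within the LIM-homeodomain family and its cofactors, the *Isl1* promoter had the highest fold enrichment of 14 genes in 4 libraries and the promoter of *Isl2*, which acts with *Isl1* in motor neurons, in the other 3. A peak with a q value of at most 0.01 was present in all 7 libraries at 8 of the 14 promoters, and in no library at *Lhx5* and *Lmx1b*, regulators of neural and limb patterning. The share over all gene promoters is not given here, so that this count cannot be read as a trait of the family. *Isl2* reached 6.63 and 7.55 in GFP+, 4.85 and 6.39 in GFP-, 6.05 and 6.85 in Tomato+ and 5.43 in Tomato- libraries, so that its Tomato+ values lay above the Tomato- value, unlike those of *Isl1*. *Ldb1*, the shared cofactor of LIM factors, reached 5.88 and 4.06 in GFP+, 3.93 and 3.70 in GFP-, 3.57 and 4.65 in Tomato+ and 4.04 in the Tomato- library, with overlap between GFP+ and Tomato+. limma could be fitted to 10 promoters of the family, called 0 in each comparison, and gave a median of 0.23 in GFP+ minus Tomato+, beside 0.01 over all 34032 regions.

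Among 12 heart field genes that act with *Isl1*, a peak with a q value of at most 0.01 was present in all 7 libraries at the promoters of *Fgf10* (an SHF growth factor), *Mef2c*, *Tbx20* and *Myocd* (cardiac and muscle transcription factors). Here too, the share over all gene promoters is not given. *Fgf10* reached 7.86 and 5.54 in GFP+, 5.26 and 5.58 in GFP-, 4.66 and 5.30 in Tomato+ and 4.76 in the Tomato- library, with GFP+ above Tomato+ as at *Isl1*. *Mef2c* reached 7.10 and 5.86 in GFP+, 5.60 and 4.79 in GFP-, 8.22 and 5.64 in Tomato+ and 4.35 in the Tomato- library. At *Tbx20*, the values were 9.35 and 7.39 in GFP+, 4.21 and 8.01 in GFP-, 7.12 and 5.23 in Tomato+ and 5.07 in the Tomato- library. Tomato+ replicate 6, lowest of all at the *Isl1* promoter, was thus highest of all at *Mef2c*. At the promoters of *Nkx2-5*, *Tbx1*, *Tbx5*, *Fgf8*, *Bmp4* and *Foxc2*, transcription factors and signals of cardiac progenitors, the limit on q was passed in 1 or 2 libraries. limma could be fitted to regions that overlap 7 of the 12 promoters, called 0 in each comparison, and gave a median of 0.17 in GFP+ minus Tomato+. That median is the value of the region at *Foxc2*, which reaches past the promoter. The *Foxc2* promoter itself had a deposited peak in only 4 libraries.

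The promoters with a pattern over the 7 libraries most like that of *Isl1* were those of *Snx24*, *Eif4b*, *Adgra3*, *Magt1* and *Cmas*. Likeness was the Euclidean distance over the 7 quantile-normalised log2 fold enrichments, which ran from 0.321 to 0.388 for these 5. The median over 14348 other genes was 1.55 and the first percentile 0.636. As these 5 were picked for the smallest distances, their place below the median was fixed in advance.

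Promoters of SHF markers did not separate the sorts sharply. Of 5 posterior SHF promoters (*Hoxb1*, *Osr1*, *Tbx5*, *Aldh1a2* and *Foxf1*), 4 passed the limit on q in both GFP+ libraries, 2 and 4 in GFP-, 2 and 4 in Tomato+ and 3 in Tomato- libraries, at a summed fold enrichment of 18.3 and 13.3 in GFP+ and 12.6 to 18.9 elsewhere. Of 4 anterior SHF promoters (*Tbx1*, *Fgf10*, *Fgf8* and *Mef2c*), 3 and 2 passed in GFP+, 3 and 2 in GFP-, 2 in both Tomato+ and 3 in Tomato- libraries, at a summed fold enrichment of 20.4 and 15.6 in GFP+, 15.7 and 13.0 in GFP-, 15.1 and 13.2 in Tomato+ and 13.9 in Tomato- libraries. Both Tomato+ sums thus lay below both GFP+ sums for these anterior markers. A promoter without a deposited peak added nothing to these sums, and the order depends on such gaps. *Fgf8* had no peak in either Tomato+ library, against 2.90 and 2.29 in GFP+, whereas *Mef2c* was highest in Tomato+ replicate 6, at 8.22. Neural crest promoters passed at 0 to 2 of 3, endothelial at 1 to 3 of 3, endoderm at 0 to 2 of 3 and blood (*Gata1* and *Klf1*) at 0 of 2 in every library, and the part of other cell types in the values at *Isl1* was not tested. None of these marker counts has a share over all gene promoters beside it.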

How the data were processed

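ATAC-seq peak lists of 7 libraries were used. The authors aligned reads to GRCm38 with SNAP, removed duplicates and reads in blacklisted regions, and called peaks in each library with MACS2 (version 2.1.1 in the submitters' processing notes, which also name bcl2fastq 2.17.1.14, SAMtools, DiffBind, HOMER and mm10). The header of the 1 list that has one gives MACS version 2.1.0.20150731, a p limit of 0.01, 5′ ends shifted by 37 bp and extended to 73 bp, and a local background of 10 kb. In the deposited lists, the pileup at the summit is a signal (coverage) in reads, not scaled between libraries, the -log10 p and -log10 q values are those of the peak caller, and the fold enrichment is a ratio of the pileup over the local background. They hold no reads per region, so that a count model as the authors ran could not be used.

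Peaks with a q value of at most 0.01 in any library were merged when they shared 1 bp, and each region took the highest fold enrichment of any deposited peak that overlapped it. Promoters ran from 1000 bp upstream to 100 bp downstream of a TSS. log2 fold enrichment was quantile-normalised and tested with limma (version 3.58.1, R 4.3.3, trend on the mean), with groups as the only term and Benjamini-Hochberg adjustment over all regions with a peak in all 7 libraries, called at an adjusted p of at most 0.05. The Tomato- group has 1 library, assumed to vary like the others. Permutation tests were exact and two-sided. Tags per library were recovered from the genome-wide background in each list. Single-copy regions had a median of under 2 genomic copies of their 31-base words. Python 3.11.15, pandas 2.3.3, numpy 2.4.6, scipy 1.17.1 and pysam 0.24.0 were used. The fit was tested on simulated data. Gene models and elements were those of RefSeq and GENCODE.

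Regions were named by a rule: those at the *Isl1* promoter and gene, the distal regions with a peak in all 7 libraries (at most 8, of which 6 existed), those with a q value of at most 0.01 in both libraries of 1 sorted population and no peak in the other, and any called by limma. The genes named were those of the window, the nearest coding neighbours, the 5 most alike promoters, and fixed lists of LIM-homeodomain and heart field genes. Members and lists were chosen with earlier results of these data known. The alternatives tried were other q limits, windows, scalings, pileup, joined summits, and each library left out. Of the anterior SHF markers, 1 gene is not reported here.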

Additional observations from a re-analysis of the deposited data

How the results depend on the processing

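Of 233 values recomputed under an alternative, 216 kept their direction and their side of the threshold, or a count within 1.5 times, 14 moved and 3 reversed. Many of those kept are counts of 0 regions called in the window, from fits that called few or no regions genome-wide. Such counts had little room to change. The 46 regions became 15 within 100 kb of the TSS, 20 with a q limit of 0.0001 and 147 with all deposited peaks, and 39 to 46 with 1 library left out. The 7 regions with a peak in all libraries became 4 within 100 kb, and 7 to 8 with 1 library left out. The 2 regions with peaks in both GFP+ and no Tomato+ library became 0 within 100 kb, 1 with a q limit of 0.0001 and 4 with all deposited peaks, and ranged from 2 to 7 with 1 library left out. The reverse pattern, at 0 regions, became 3 with all deposited peaks and ranged from 0 to 6. With 1 library of a pair left out, the rule asks for 1 library where it asked for both. Genome-wide shares under these alternatives are not given here. At the promoter, GFP+ minus GFP- was 0.0039 on the log2 scale with pileup in place of fold enrichment and 0.0305 without GFP+ replicate 4, and ranged from -0.28 to 0.0305 over left-out libraries. The cause was not tested. GFP+ minus Tomato+ ranged from 0.30 to 0.90, Tomato+ minus Tomato- from -0.71 to -0.10, and sort-positive minus sort-negative from -0.42 to -0.11 by limma and from -0.44 to -0.09 in the permutation test. The difference between both lines, 0.29, was -0.0181 without Tomato+ replicate 6 and 0.593 without Tomato+ replicate 8. The median position of the promoter peak, 4.60% of each list, was 13.1% among peaks with a q value of at most 0.01, since fewer peaks were ranked. At Isl1-F, GFP+ minus Tomato+ ranged from 0.24 to 1.42. The region 266 kb upstream ranged from -1.41 to -1.23 and was not called under any alternative, with a limma adjusted p from 0.0585 under median centring to 0.891 without GFP- replicate 1. limma called 0 regions of the window under every alternative. A fit without 1 library leaves 1 sample in that group, which is assumed to vary like the others. The fits on 4 libraries, the line difference, and all alternatives for Isl1-F, for the regions 12.3 kb downstream, 62.4 kb and 266 kb upstream and for the permutation test were chosen after seeing the data. No paired analysis was possible because the groups share no replicate numbers. The pileup behind the lowest value at Isl1-F was 7 reads (Tomato+ replicate 8), which limits the precision of that value.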

Other observations

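Further single-copy regions on either side of *Isl1* were shared by several populations and were chosen after their values were seen. A region 61.5 kb upstream (chr13:116371129-116371310) had a fold enrichment of 4.22 and 3.0 in GFP+, 3.52 and 3.8 in GFP-, 2.3 in Tomato+ replicate 6 and 4.32 in the Tomato- library, with no peak in Tomato+ replicate 8. GFP+ and GFP- values overlapped, and neither Tomato+ library reached a q value of 0.01. A region 205 kb upstream (chr13:116514963-116515256) had its highest value in Tomato+ replicate 8, 5.38, and also a peak in GFP+ replicate 3 at 3.31, in both GFP- libraries at 4.78 and 2.98 and in the Tomato- library at 2.59. A region 359 kb downstream (chr13:115950592-115950849) was the only one with a deposited peak in both Tomato+ libraries, at 3.62 and 3.11, and in neither GFP+ library (2.69% of regions genome-wide), and it had a peak at 2.77 in GFP- replicate 1. Each lacked a peak in at least 1 library, so none entered the limma fit.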
